A study of Danio rerio with 10 samples.

Results

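Ribosomal protein genes encode the structural proteins of the cytosolic ribosome, and they were followed here in zebrafish ventral somite progenitors with and without a caged morpholino against *spadetail*. The members were all records of the count table whose RefSeq symbol starts with *rpl* or *rps* and a number, or with *rplp*, leaving out the *rps6k* kinases. The rule found 85 of 14720 records, 35 for the small subunit and 50 for the large, under 81 symbols. It does not reach proteins with other symbols, such as the products of *faua* and *faub*.

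The spt_cMO embryos carried a caged fluorescein-dextran tracer (cFD) together with the caged *spt* morpholino, and the control embryos carried the tracer alone. Both groups were wild type of the AB strain and were injected at the 1-cell stage by the sample labels, or up to the 4-cell stage by the series' text. Morpholinos are antisense oligonucleotides, here kept inactive by a group that light removes, and the target gene *spadetail* is now called *tbx16* and encodes a transcription factor of mesoderm progenitors. At 6 hours post-fertilization (hpf) ultraviolet light of 360 nm was directed at ventral somite progenitors through a diaphragm of 100 µm in both groups. Cells that fluoresced were collected by sorting at 9 hpf. Control embryos had no morpholino of any kind, so loss of *tbx16* and other effects of a morpholino cannot be told apart. Each group held 5 libraries, called biological replicates in the labels, and each was made from sorted cells of an unstated number of embryos.

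A ribosome has a small subunit, which reads the messenger RNA, and a large subunit, which joins the amino acids and carries a flexible stalk that recruits translation factors. Each ribosome holds about equal numbers of most of these proteins, and their messenger RNAs share a pyrimidine-rich start through which cells regulate their translation together. In zebrafish, mutants in many ribosomal protein genes develop tumours as heterozygotes, and in humans several of the genes are mutated in Diamond-Blackfan anaemia.

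Libraries held between 2036973 and 9374914 counts, so that 3 counts amounted to between 0.32 and 1.47 CPM (counts scaled to the library's size). The *tbx16* transcript (NM_131058) was at 546, 463, 577, 394 and 652 CPM in spt_cMO libraries 1 to 5, against 421, 321, 364, 391 and 433 CPM in control libraries 1 to 5, and it did not pass the test (adjusted p = 0.0897, edgeR), although it did in a model that blocks on replicate number (adjusted p = 0.0172, log2 fold change 0.43). Morpholinos act on translation or splicing, so a transcript count checks the labels only weakly. The presomitic mesoderm factor *msgn1* fell to 2029 CPM ± 632 in spt_cMO, against 5838 CPM ± 774 in control (SD, n = 5 each), a log2 difference of -1.53 (SE 0.19, adjusted p = 0.000467, edgeR). Of 10 presomitic marker records 9 were counted in every library, and together they took between 0.340% and 0.5002% of the counts in spt_cMO and between 0.698% and 0.890% in control. Most of the difference in that sum lay in *msgn1*. Of the 9 tested records 3 were called lower and 1 higher, *tbxta*, at 439 CPM ± 44.2 in spt_cMO and 338 CPM ± 21.3 in control (adjusted p = 0.0440, edgeR). The gene *tbxta* is also expressed in notochord, so its rise is not particular to presomitic mesoderm. That list also held *tbx16*, the target of the morpholino. Markers of neural ectoderm (4 records) took at most 0.0693% in spt_cMO and 0.0585% in control, and those of epidermis and enveloping layer (7 records, 1 of them at 0) at most 0.0582% and 0.0408%. Those of notochord (4 records), endoderm (3 records) and germ cells (3 records) took at most 0.0190% in any library. Of the 3 tested notochord records 1 was called higher, *shha*, at 6.23 CPM ± 2.04 in spt_cMO and 1.81 CPM ± 1.17 in control (log2 fold change 1.83, adjusted p = 0.0195, edgeR). It held 173 counts over all libraries, and in the control libraries 3 counts amounted to between 0.376 and 0.891 CPM. The other tested notochord records did not pass and differed in direction, with a lowest log2 fold change of -0.23. The summed notochord share was between 0.00205% and 0.00403% in spt_cMO and between 0.00191% and 0.00357% in control, higher in spt_cMO in 5 of 5 same-numbered pairs, and its part in the results was not tested. For blood and endothelium (3 records) and the yolk syncytial layer (3 records, 1 of them at 0) the share was at most 0.000576% and no record was tested.

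Ribosomal protein transcripts took about the same share of the counts in both groups. In spt_cMO libraries 1 to 5 they made up 16.2%, 16.2%, 16.8%, 15.7% and 15.4% of all counts. In control libraries 1 to 5 they made up 14.6%, 17.3%, 16.3%, 14.8% and 16.2%. The control libraries held both the lowest and the highest share, and all spt_cMO values lay inside the control range. The mean was 16.1% ± 0.520 in spt_cMO and 15.9% ± 1.14 in control (SD, n = 5 each), a difference of 0.212 percentage points, which is smaller than the spread within either group. Without control library 1 the difference was -0.0995 points and without control library 4 it was -0.0558 points, so its sign rested on those libraries. If each read is an independent draw, counting error is small beside that spread. The widest 95% interval (exact Clopper-Pearson, counting error only) ran from 16.18% to 16.28% in spt_cMO library 2. No molecular identifiers are named in the labels. Reads may be copies of fewer molecules, and the interval is then too narrow. A share is relative to the other transcripts of the same library, and in bulk samples fewer cells of a type and less RNA per cell cannot be told apart.

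**Figure D1:**
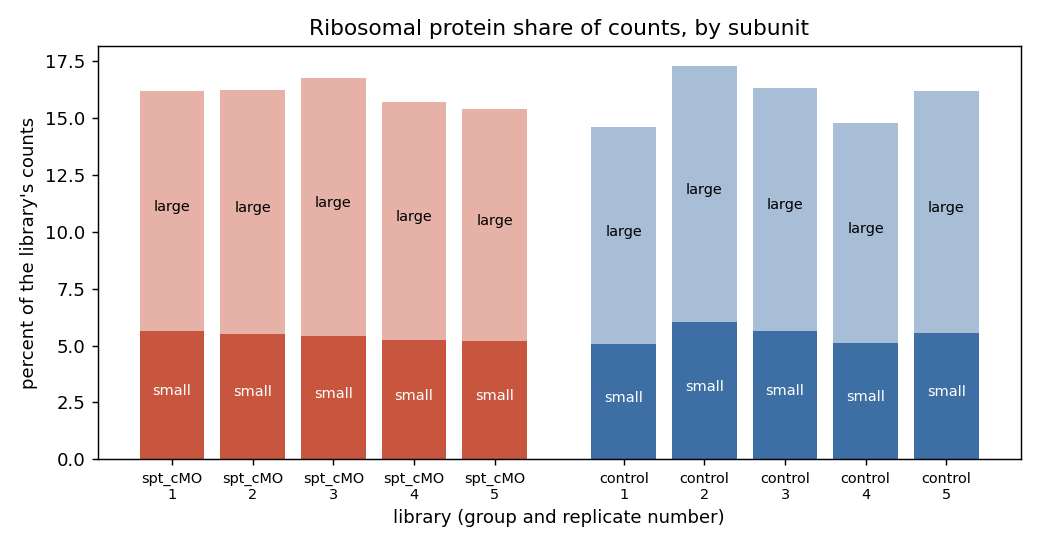
Bars give the percent of each library's counts that fell on ribosomal protein records, small subunit at the bottom and large subunit above it, for the 5 spt_cMO and 5 control libraries. The 5 spt_cMO bars reach between 15.4% and 16.8% and the 5 control bars between 14.6% and 17.3%.

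The most counted non-ribosomal record, *hspb1*, which encodes a small heat shock protein, was high in the control libraries where the ribosomal share was low. It took 3.97% and 3.46% of the counts in control libraries 1 and 4, which had the lowest ribosomal shares, and 1.78% and 1.835% in control libraries 2 and 3, which had the highest. In spt_cMO libraries 1 to 5 it took 2.66%, 2.45%, 2.59%, 2.76% and 2.21%, and the pattern of the controls did not hold throughout. Library 5 had both the lowest *hspb1* share and the lowest ribosomal share (15.4%). Library 4 had the highest *hspb1* share and the next lowest ribosomal share (15.7%). Its part in the ribosomal share was not tested. With the 10 most counted other records left out of the totals, the groups differed by 0.274 percentage points.

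The small subunit took 5.40% ± 0.185 of the counts in spt_cMO and 5.47% ± 0.408 in control, and the large subunit 10.7% ± 0.433 and 10.4% ± 0.735 (SD, n = 5 each). The ratio of small to large subunit counts was 0.533, 0.516, 0.476, 0.497 and 0.513 in spt_cMO libraries 1 to 5. In control libraries 1 to 5 it was 0.528, 0.535, 0.526, 0.526 and 0.519. The controls lay close together, while spt_cMO libraries 2 to 5 lay below every control and library 1 lay among them. On the log2 scale the ratio averaged -0.98 ± 0.06 in spt_cMO and -0.92 ± 0.02 in control, a difference of -0.06. That is larger than the spread among controls and smaller than the spread among spt_cMO libraries, and the groups overlap. Without spt_cMO library 3, which had the lowest ratio, the difference was -0.03. With the median log2 CPM of each subunit's members in place of the sums the difference was -0.08. The median log2 fold change was 0.02 over the 32 tested small subunit records and 0.01 over the 45 of the large subunit, whereas the summed small subunit share gave a difference of -0.0682 percentage points, spt_cMO minus control.

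No ribosomal protein record passed the test between the groups. Of 85 records 77 had enough counts to be tested, of which edgeR (quasi-likelihood, adjusted p under 0.05) called 0 higher and 0 lower. Of all 6570 tested records 0.807% were called higher in spt_cMO and 0.974% lower, or 1.78% in all. A set of 77 would hold few calls at that share, so the count of 0 is near it. A model that blocks on replicate number called 2.75% of the tested records, and again 0 of the 77. An unadjusted p under 0.05 was reached by 2 members, *rpl11* and *rps27.2*, against 9.44% of all tested records, and DESeq2's Wald test also called 0 members and gave 2 an unadjusted p under 0.05. The groups overlapped in all 77 members, and did not overlap in 3.06% of all tested records. Across the 77 members the log2 fold change ran from -0.23 to 0.30 with a median of 0.01, where the median over all tested records was 0.00. It was positive in 43 members. The median was -0.02 with no filter on low counts, without spt_cMO library 3 and without control library 4, so it had no stable sign. In the authors' deposited table of their own comparison the same 77 records were listed and 0 were called at an adjusted p of 0.05, where 3.58% of its 6923 records were, and the lowest adjusted p of a member there was 0.304.

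The 95% intervals of the 77 members ran from -0.46 at the lowest bound to 0.54 at the highest on the log2 scale, so that all 77 lay within a 1.5-fold change in either direction, and 49 lay within a 1.25-fold change. An absolute log2 fold change under 0.25 was seen in 76 of the 77 members (98.7%), in 87.5% of the 1483 other tested records that were at least as abundant as the lowest tested member, and in 76.6% of all tested records.

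**Figure D2:**
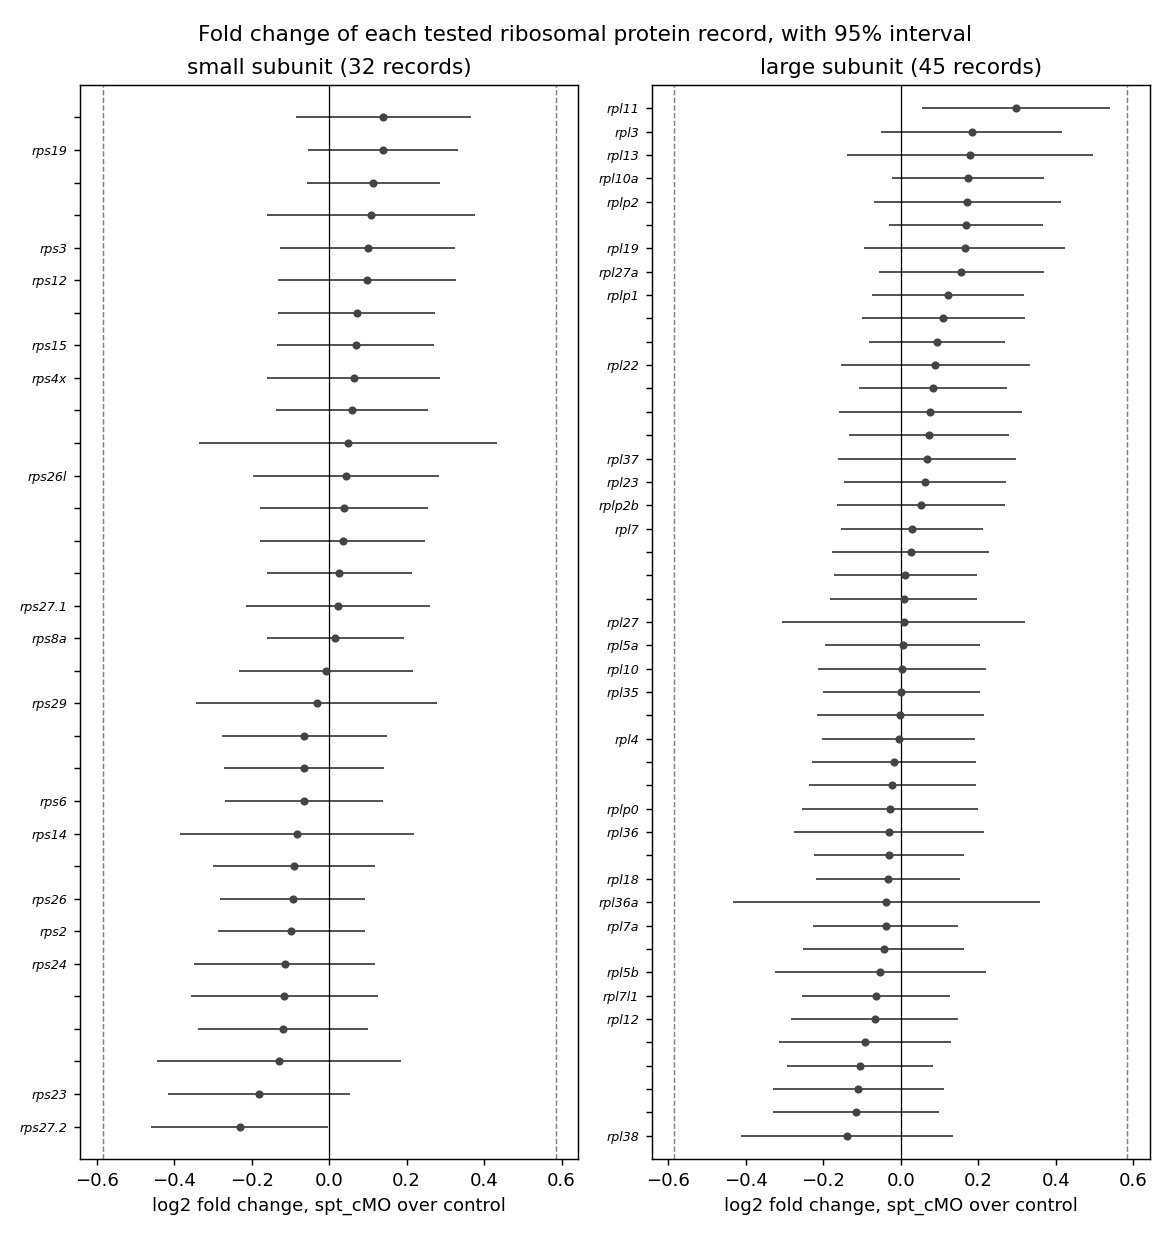
Points give the log2 fold change of spt_cMO over control for each tested ribosomal protein record and bars its 95% interval from edgeR's quasi-likelihood fit, small subunit on the left and large subunit on the right; dashed lines mark a 1.5-fold change in either direction, and some of the records are labelled. All intervals stay inside the dashed lines, and those of *rpl11* and *rps27.2* do not reach 0.

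**Figure D3:**
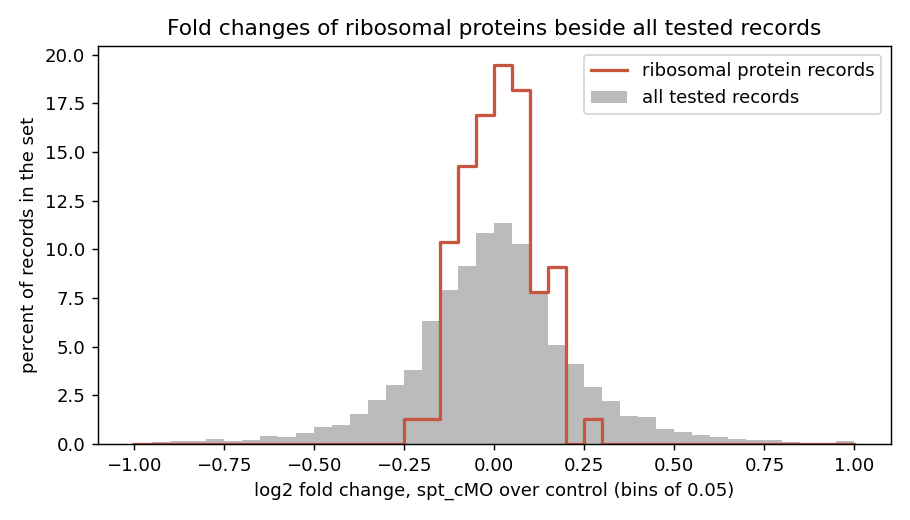
The line gives the percent of the 77 tested ribosomal protein records, and the grey bars the percent of all 6570 tested records, in each bin of log2 fold change of spt_cMO over control. Both are centred near 0, and the members lie between -0.23 and 0.30; 0.974% of all tested records fall outside the plotted range.

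Among the most counted members were the large subunit genes *rpl7a*, *rpl27a*, *rplp2b*, *rplp0* and *rpl27*. *rpl7a* (NM_200047), the most counted of all, was at 9458, 10421, 10498, 10572 and 9384 CPM in spt_cMO libraries 1 to 5, against 9228, 10942, 10103, 9807 and 11614 CPM in control. It ranked 7 among all records by mean CPM, and its 10 values overlapped throughout (log2 fold change -0.04, 95% interval -0.23 to 0.15). Members made up 5 of the 20, 17 of the 50 and 37 of the 100 records with the highest mean CPM. At the other end, *rps12*, *rplp2* and *rpl7l1* were among the least counted tested members. *rps12* (NM_200046) was at 93.3 CPM ± 9.30 in spt_cMO and 87.3 CPM ± 10.2 in control (SD, n = 5 each), so that tested members spanned a 113-fold range of mean CPM. Each ribosome holds about equal numbers of most of these proteins. The tested records include less counted copies, such as *rplp2* beside *rplp2b*, so equal need does not hold record by record. CEL-seq reads come from the 3′ end of transcripts, so CPM was not divided by length, and the order of members is an order of counts.

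The stalk proteins bind the factors that drive each step of translation. *rplp0* (NM_131580), the base of the stalk, was at 5335, 5399, 7668, 6334 and 5129 CPM in spt_cMO libraries 1 to 5, against 6324, 5624, 6389.7, 6092 and 6007 CPM in control. Library 3 of spt_cMO was the highest of all 10 and libraries 1, 2 and 5 were lower than every control (log2 fold change -0.03, adjusted p = 0.978, edgeR). *rplp1*, which pairs with the P2 protein on the stalk, averaged 3424 CPM ± 274 in spt_cMO and 3147 CPM ± 290.2 in control (SD, n = 5 each). The P2 protein is listed under 2 records. *rplp2b* averaged 6529 CPM ± 613 in spt_cMO and 6296 CPM ± 848 in control, and *rplp2* 320.0 CPM ± 28.4 and 284 CPM ± 47.5. *rpl12*, at the stalk's foot, averaged 3017 CPM ± 152 and 3162 CPM ± 469. The log2 fold changes of these 5 lay between -0.07 and 0.17, and the lowest adjusted p was 0.754 (edgeR).

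The 5S particle joins *rpl5* and *rpl11* proteins to the 5S ribosomal RNA before it is built into the large subunit. *rpl11* (NM_001002139) had the highest log2 fold change of all members. It was at 1037, 842, 1095, 1238 and 1284 CPM in spt_cMO libraries 1 to 5, against 930.2, 957, 941, 731 and 913 CPM in control. In spt_cMO, 4 libraries lay above every control and library 2 lay below 4 of the 5 controls. The log2 fold change was 0.30 (SE 0.11, 95% interval 0.06 to 0.54) with an unadjusted p of 0.0186, and it did not pass (adjusted p = 0.339, edgeR). The adjusted p lay between 0.0811, without spt_cMO library 2, and 0.651, without spt_cMO library 4. *rpl5b*, the more counted of the pair of *rpl5* copies, averaged 3678 CPM ± 408 in spt_cMO and 3815 CPM ± 758 in control, and *rpl5a* 509 CPM ± 48.8 and 507 CPM ± 41.0 (SD, n = 5 each), so the partner genes gave log2 fold changes of -0.05 and 0.00.

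Proteins around the catalytic centre and the exit tunnel of the large subunit gave values of the same kind. *rpl3*, near the peptidyl transferase centre, was at 1669, 1244, 1702, 1645 and 1748 CPM in spt_cMO libraries 1 to 5, against 1392, 1364, 1239.7, 1330.0 and 1729.8 CPM in control. Library 2 of spt_cMO stood apart below the other 4, and control library 5 above the other controls (log2 fold change 0.18, SE 0.11, adjusted p = 0.705, edgeR). *rpl10*, whose protein joins late in the making of the large subunit, averaged 1512 CPM ± 219.7 in spt_cMO and 1508 CPM ± 99.3 in control (SD, n = 5 each). *rpl36a*, on the transfer RNA side, varied most widely of the 4 genes of this group, from 3193 to 5865 CPM in spt_cMO and from 2860.2 to 5324 CPM in control. Of the tunnel proteins *rpl4*, which lines the tunnel, averaged 4789 CPM ± 535 and 4807 CPM ± 303, and the 7 tested tunnel genes had log2 fold changes between -0.09 and 0.16. Other members near the top of the list were *rpl13*, at a log2 fold change of 0.18 (SE 0.15), and *rpl10a*, at 0.17 (SE 0.09, adjusted p = 0.631, edgeR). *rpl13* was at 3744, 3470.5, 6511, 4721 and 4377 CPM in spt_cMO libraries 1 to 5, against 3458, 4255, 4653, 3558 and 4239 CPM in control. Library 3 of spt_cMO was the highest, and without it the log2 fold change was 0.02.

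*rpl38* encodes a large subunit protein that, in mouse, is needed for the translation of a subset of Hox messenger RNAs. Its transcript (NM_001002486) was at 1452, 1633, 999.9, 1063 and 1239 CPM in spt_cMO libraries 1 to 5, against 1220.0, 1643, 1509, 1273 and 1386 CPM in control. Libraries 3 and 4 of spt_cMO lay below every control, and the others lay among them. It had the lowest log2 fold change of the large subunit, -0.14 (SE 0.13, 95% interval -0.41 to 0.13, adjusted p = 0.863, edgeR).

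On the small subunit, proteins along the path of the messenger RNA had log2 fold changes between -0.18 and 0.10, and 0 of 8 were called. Over all tested records 1.78% were called, so a count of 0 in so small a group says little about it. *rps23*, in the decoding centre, averaged 2422 CPM ± 208 in spt_cMO and 2745 CPM ± 453 in control (SD, n = 5 each, log2 fold change -0.18, SE 0.11). *rps2* and *rps3*, at the entry of the channel, averaged 4254 CPM ± 141 and 908 CPM ± 121 in spt_cMO, against 4552 CPM ± 489 and 847 CPM ± 90.0 in control. *rps6*, the target of S6 kinase, averaged 1104 CPM ± 119 and 1156 CPM ± 91.9, and *rps19*, the gene first tied to Diamond-Blackfan anaemia, 814 CPM ± 48.5 and 739 CPM ± 71.8, neither past the test. Of 12 tested records of genes tied to that disease in humans 0 were called, again a small group beside a share of 1.78%. Their median log2 fold change was 0.01.

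Several members occur as related copies, in which reads could have been split between records, so single values are uncertain. In the *rps27* pair *rps27.2* (NM_200765) had the lowest log2 fold change of all members, with 656, 712, 579, 705 and 653 CPM in spt_cMO libraries 1 to 5, against 732, 723, 625, 881 and 915 CPM in control. All spt_cMO values lay below 4 of the 5 controls, and control library 3 lay among them. The log2 fold change was -0.23 (SE 0.11, unadjusted p = 0.0481) and did not pass (adjusted p = 0.523, edgeR), and over the alternatives the adjusted p lay between 0.299 and 0.808. Its copy *rps27.1* averaged 912 CPM ± 92.0 in spt_cMO and 898 CPM ± 145 in control (SD, n = 5 each, log2 fold change 0.02). As a share of the pair's counts, *rps27.2* made up 42.1% ± 3.20 in spt_cMO and 46.4% ± 5.94 in control, and the highest value, 55.7%, was that of control library 4. In the *rps26* pair, *rps26l* made up 47.1% ± 3.54 of the counts in spt_cMO and 44.8% ± 4.56 in control. *rpl5b* made up 87.8% ± 1.21 and 88.0% ± 1.77 of its pair, and *rplp2b* 95.3% ± 0.764 and 95.6% ± 1.00. *rpl7l1*, whose symbol marks it as like *rpl7*, made up 9.87% ± 0.771 and 10.5% ± 1.38 of the counts of both. The groups overlapped in the share of each of these 5 pairs.

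**Figure D4:**
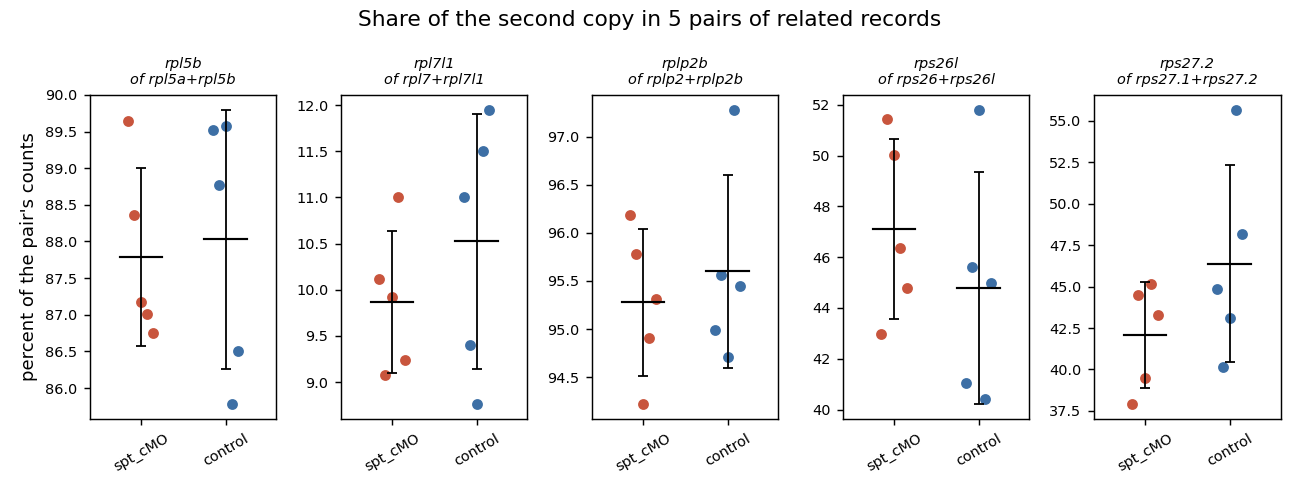
Each panel gives, for 1 pair of related records that were both tested, the percent of the pair's counts that fell on the copy named first, in the 5 spt_cMO and 5 control libraries, with the mean and SD; the vertical axes differ and do not start at 0. The groups overlap in each panel, and *rps27.2* in control library 4 stands highest at 55.7%.

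Pairs that share a number but encode different proteins, such as *rpl7* and *rpl7a*, were not treated as copies. There were 10 of them (*rpl7*, *rpl10*, *rpl13*, *rpl18*, *rpl23*, *rpl27*, *rpl35*, *rpl36*, *rps3* and *rps15*, each with its partner ending in *a*), and 0 of these 20 records passed. Over all tested records 1.78% passed. Records too low to test numbered 8, with at most 8 counts in any library. *rpl22l1*, a copy of the large subunit gene *rpl22*, had 47 counts over all libraries on 1 record and 0 on the other, while *rpl22* averaged 757 CPM ± 75.8 in spt_cMO and 712 CPM ± 119 in control (SD, n = 5 each). *rps8b* had 16 counts over all libraries, while *rps8a* averaged 2876 CPM ± 154 and 2845 CPM ± 174. The listed records of *rpl17* and *rpl29* held 12 counts and 1 count in all. These are counts of the listed records, and whether they measure the genes' transcripts was not tested. The second records of *rps24* and *rps12* held 14 and 0.

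Across libraries, members tended to move together within a group. After the group means were taken off, pairs of the 77 tested members had a mean correlation of 0.22 in log2 CPM over the 10 libraries, and 72.0% of the 2926 pairs were above 0. Over 1483 other tested records at least as abundant as the lowest tested member (90.3 CPM) the mean was 0.01 and 50.5% of pairs were above 0. Within the small subunit the mean was 0.17, within the large subunit 0.26, and between the subunits 0.22. Pairs share the same libraries, depth and scaling, so these values are descriptions without a test. Records of related sets above that floor gave 0.08 over 38 translation factors, 0.04 over 12 mitochondrial ribosomal proteins and 0.02 over 47 ribosome assembly genes. All these sets were cut at the floor and not matched in abundance to the members, whose median was 1342 CPM. The part of abundance in the correlations was not tested. Members most like the rest were *rpl37*, *rpl12* and *rplp1*, with mean correlations of 0.44, 0.42 and 0.42, and those least like it *rps2*, *rps27.2* and *rps26*, with -0.28, -0.20 and -0.19. *rpl37* was at 995, 1363, 1172, 867 and 1191 CPM in control libraries 1 to 5 and *rps2* at 5216, 4298, 3946, 4829.9 and 4469 CPM, so that *rps2* was high in libraries 1 and 4, where *rpl37* was low.

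The first component of these deviations held 39.7% of their variance, with 65 of the 77 members on 1 side. Its ends were control libraries 1 and 4 on the low side of those 65 members, with scores of 0.43 and 0.52, and control libraries 2 and 3 on the high side, with -0.48 and -0.37. The score of spt_cMO library 3 was -0.32. Control library 4 was the lowest of its group in 35 members and control library 1 in 28, and control library 2 the highest in 31. *rps14* and *rps29* were among the members that weighed most in it: *rps14* ranged from 1304 to 1591 CPM in spt_cMO and from 1115 to 2019 CPM in control, and *rps29* from 649.9 to 869 CPM and from 614 to 1074 CPM. The second component, 22.4% of the variance, had spt_cMO library 2 at one end (0.68), where *rpl38* and *rpl36a* were high and *rpl13*, *rpl19* and *rpl11* low, and spt_cMO libraries 3, 4 and 5 at the other (-0.35, -0.35 and -0.30). Library 2 of spt_cMO was also the shallowest, with 2036973 counts. It had the highest share of epidermis and enveloping layer markers as well, 0.0582%. The next in its group was library 5 at 0.0405%, and control libraries held at most 0.0408%. The parts of depth and of cell content in this pattern were not tested. The coefficient of variation of a member had a median of 9.996% in spt_cMO and 10.7% in control.

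**Figure D5:**
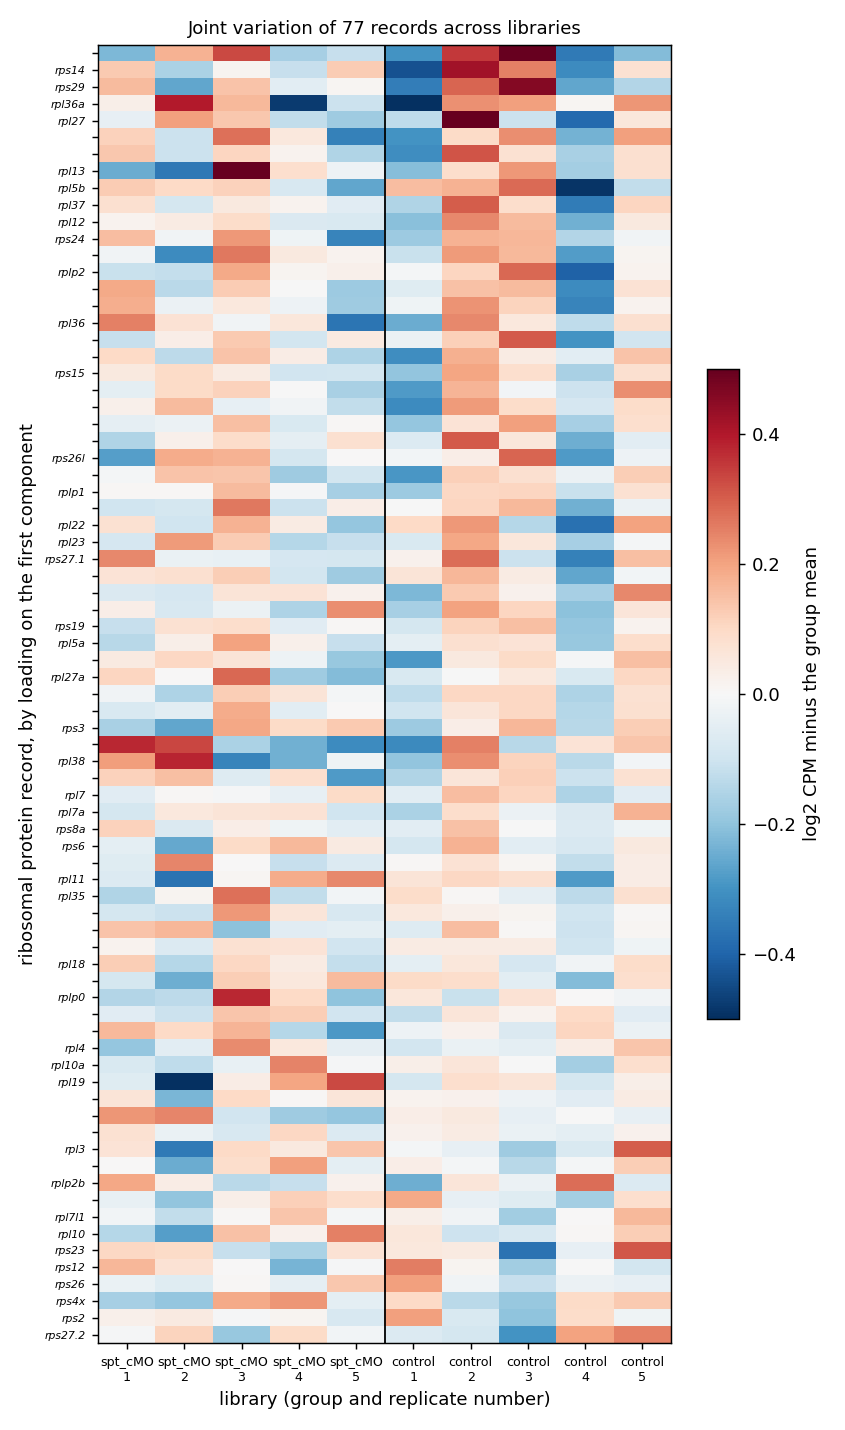
Colours give each tested ribosomal protein record's log2 CPM minus its group's mean, clipped at 0.5 in either direction, with records, some of them labelled, ordered by their loading on the first component and the 5 spt_cMO libraries left of the 5 control libraries. Most rows are blue in control libraries 1 and 4 and red in control libraries 2 and 3, and *rps2* and *rps4x*, near the bottom, run the other way in those 4 libraries.

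Other genes of protein synthesis also gave no calls. Over all tested records 1.78% were called and 9.44% had an unadjusted p under 0.05 (edgeR), so lists of this size would hold few calls at that share. Of 64 tested translation factors (symbols starting with *eif* or *eef*) 0 were called in either direction, with 2 at an unadjusted p under 0.05 and a median log2 fold change of -0.01. *eef1a1l1*, which encodes the elongation factor that brings transfer RNA to the ribosome, was at 17730 CPM ± 1335 in spt_cMO and 17428 CPM ± 1058 in control (SD, n = 5 each). The lowest of the list was *eif4ebp3l*, whose relatives in mammals restrain translation at the cap, with 1141 CPM ± 239 and 1575 CPM ± 280.4, a log2 fold change of -0.47 (SE 0.14, adjusted p = 0.152, edgeR); it passed without spt_cMO library 3 (adjusted p = 0.0252) and with no filter on low counts (adjusted p = 0.041), and its adjusted p ranged from 0.0252 to 0.368. Of 63 tested mitochondrial ribosomal proteins 0 were called, with a median of -0.03, and *mrpl13* passed with the replicate block (log2 fold change -0.36, adjusted p = 0.0344, against 0.593 without it, over a range of 0.0344 to 0.836). Of 66 tested genes of ribosome assembly, which act in the nucleolus, 0 were called, with a median of -0.02, and the abundant *npm1a*, *ncl* and *fbl* had log2 fold changes of -0.09, 0.11 and -0.06.

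Ribosomal proteins under other symbols and partners of the ribosome gave 0 calls of 7 tested, where 1.78% of all tested records were called. *faua* and *faub*, which encode a small subunit protein fused to a ubiquitin-like part, were at 1198 CPM ± 39.3 and 143 CPM ± 46.1 in spt_cMO, against 1295 CPM ± 159 and 177 CPM ± 15.2 in control. *faub* had a log2 fold change of -0.29 (adjusted p = 0.666, edgeR), and it passed without spt_cMO library 1 (log2 fold change -0.52, adjusted p = 0.0149), over a range of 0.0149 to 0.870. *rack1*, which encodes a scaffold on the small subunit, had a log2 fold change of -0.01. In the Myc family, transcription factors known to drive ribosome production, 0 of 7 were called and 3 had an unadjusted p under 0.05. Over all tested records these shares were 1.78% and 9.44% (edgeR). *mych* was at 179 CPM ± 25.5 in spt_cMO and 237 CPM ± 28.2 in control (SD, n = 5 each, log2 fold change -0.41, SE 0.11, adjusted p = 0.0837, edgeR), and it passed with the replicate block (adjusted p = 0.0274), by DESeq2 (0.0425), with no filter on low counts (0.0302), without spt_cMO library 5 (0.0260) and without control library 1 (0.0448), over a range of 0.0260 to 0.242. *mycb* had a log2 fold change of -0.34 and *mycla* of 0.23, and neither passed.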

How the data were processed

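Transcripts of sorted zebrafish cells were read from their 3′ ends by CEL-seq in 10 barcoded libraries, with RNA integrity numbers of 8.1 to 9.9 per the labels. The authors deposited raw read counts per RefSeq record; per the series' design text, alignment was to Zv8 and ran on Galaxy with custom scripts, and the aligner, the counter and its use of strand are not given in the sources used here. No molecular identifiers are named in the labels. Intervals of the ribosomal share cover counting error only. Those of the fold changes come from the quasi-likelihood fit, which includes variation between libraries. The authors also deposited their edgeR comparison, with log2 fold changes, likelihood ratio scores, p-values and adjusted p-values per record and no values per library; only its members' values were used. Symbols were taken from RefSeq's table of genes (GRCz12tu), which matched 13986 of 14720 records and served for names alone. No sequences are shown.

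The low-count filter was filterByExpr of edgeR 4.0.16 (R 4.3.3), with a minimum count of 10, a total of 15 and a proportion of 0.7, which left 6570 records. Libraries were scaled by TMM and the groups compared by the robust quasi-likelihood test, 2-sided, with Benjamini-Hochberg adjustment over all 6570 records at 0.05. CPM values are TMM-scaled, fold changes are spt_cMO over control, and standard errors come from the F statistic. The fit was also run on simulated counts. These were drawn with its own estimates of spread and no effect of replicate number, so they do not check its p-values on these data. Correlations used log2 CPM with a prior count of 2. Shares, ratios and correlations over the members have no test. DESeq2 1.42.0 served as an alternative, beside other scalings, no filter on low counts, a replicate block and leaving out each library on the same 6570 records.

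The labels give both groups replicate numbers 1 to 5. After group means were removed, libraries that share a number correlated over the 6570 records at 0.135, 0.251, 0.119, 0.203 and 0.147. All lay above the limit of 0.1, so the numbers were taken to pair the libraries, although the labels do not say that a number marks a shared batch. Over the tested members alone the correlations were -0.164, 0.255, 0.396, 0.057 and -0.005. The main test did not use the pairing, so its p-values are unpaired. A block on replicate number was run as an alternative. No pair of libraries held the same counts (the chi-square over its degrees of freedom was 7.53 to 32.4). The members, the gene lists and the rule for named genes were chosen with earlier results of these data known. Named were members past the test, the 6 most and 4 least counted, the 4 highest and 4 lowest by log2 fold change, stalk proteins, pairs by symbol, genes of known roles, and the 3 most and 3 least like the other members; others were chosen after their values were seen. Role groups were drawn up after the first values were seen. Some genes are not reported here by name; counts over lists include them, and in the plots they carry no label.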

Additional observations from a re-analysis of the deposited data

Results flagged for a closer look

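Of 94 sets of 5 values examined (the share, the subunit ratio and 45 named members in each group), 5 held a library that lay far from the other 4, and chance alone gives about 1 in 20. In spt_cMO, *rpl3* in library 2 was at 1244 CPM, where the others lay between 1645 and 1748 CPM. *rps27.1* in spt_cMO library 1 was at 1074 CPM, with the next at 888 CPM, and *rpl23a* in spt_cMO library 3 was at 536 CPM, with the next at 471 CPM. In control, *rpl11* in library 4 was at 731 CPM, where the others lay between 913 and 957 CPM, and *rps26* in library 1 was at 1027 CPM, with the next at 880.3 CPM. Without control library 4 the log2 fold change of *rpl11* was 0.24 (adjusted p = 0.604, edgeR).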

How the results depend on the processing

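The count of 0 members called in either direction held under all 16 alternative fits, with a lowest adjusted p of 0.0811. Over 720 values of 45 named members 59 had the other sign, none of them called, and 26 members kept their sign throughout. The difference in share ranged from -0.0995 without control replicate 1 to 0.577 percentage points without control replicate 2, and that of the log2 subunit ratio from -0.0772, with medians in place of sums, to -0.0330. The mean of same-numbered differences was 0.212 for the share and -0.0559 for the log2 subunit ratio. With all 5 pairs complete it must equal the difference of group means, so it is no check of either. The share was higher in spt_cMO in 3 of the 5 same-numbered pairs, and the log2 subunit ratio in 1 of 5. In the fits per record, the replicate block changed no call of a member. Over all records 88 were higher with the replicate block and 83 by DESeq2, against 53, and 93 and 86 were lower, against 64; without single libraries 36 to 57 were higher and 45 to 68 lower. Among the related lists, where 0 were called with all libraries, 1 per list was lower with the replicate block (*mych*, *mrpl13*), by DESeq2 (*mych*), with no filter on low counts (*mych*, *eif4ebp3l*) and without single libraries (0 to 1 in the Myc family, the translation factors and the partners). The mean correlation of members was 0.27 with the replicate block, against 0.22 without it, and without single libraries it ran from 0.17, without control replicate 4, to 0.26, without spt_cMO replicate 2; the cause was not tested. For *tbx16* the adjusted p was under 0.05 with the replicate block (0.0172), no filter (0.0414), DESeq2 (0.0451) and without spt_cMO replicate 4 (0.024). Records of *rpl17*, *rpl29*, *rpl22l1* and *rps8b* held too few counts for a test.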
